A study of Saccharomyces cerevisiae with 2 samples.

Results

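The genes described here encode the enzymes that carry glucose to ethanol in budding yeast (Saccharomyces cerevisiae), with the side branches to glycerol and to acetate and acetyl-CoA. They were chosen as a fixed list of 35 open reading frames, from the hexokinases to pyruvate kinase, then pyruvate decarboxylases, alcohol dehydrogenases, aldehyde dehydrogenases, acetyl-CoA synthetases and the glycerol genes. All 35 were found among the 6207 gene features of the deposited table, and their symbols in the R64 RefSeq table matched the list. The list follows the enzymes' roles and sets no bound on a measured value, though it was drawn up with earlier results of these data known.

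Yeast growing on glucose ferments most of it to ethanol even with oxygen present, and the glycolytic enzymes are among its most abundant proteins. Most steps are encoded by several isozyme genes, some used during growth on glucose and others held down by glucose repression. Glycerol made from the triose branch serves as the cell's osmolyte and takes up surplus NADH, and it is the output of the high osmolarity pathway, which uses mitogen-activated protein kinases (MAPKs) like the mating and cell wall pathways. MSG5 encodes a phosphatase that switches off MAPKs of the mating and cell wall pathways. Alpha factor is the pheromone that MATa cells sense during mating.

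Two-colour arrays were used, on which a pair of RNAs compete for the same spots. In the first comparison an msg5 deletion strain was set against wild type, for which the labels name the strain BY4741, both without pheromone. The cultures were refreshed to an optical density of 0.2, grown for 2 h 30 min at 24 °C and collected 2 h later. In the second, msg5 deletion cells given alpha factor, at a concentration the labels write as 50 mM, were set against msg5 deletion cells without it. These cultures had 4 h of growth and were collected 90 min later, so all RNAs of the second comparison lack MSG5 and no wild type with alpha factor was analysed here. The genetic background of the deletion strain and whether it is 1 clone are not stated in the labels. That the unit of the pheromone dose is the one meant was not tested.

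Each comparison is 1 log2 ratio per feature, which the authors condensed from 4 arrays of 2 biological samples with swapped dyes. The table holds no spread between cultures, so no difference below has a test, and precision is limited by how few arrays there were. Features of the same gene were averaged, and a feature with no match in the R64 table was counted as a gene of its own. A rough error came from genes that several features matched by current or older names. Over 25 such genes in the deletion comparison the features of a gene differed by a median of 0.20 and at most 0.61 (pooled SD 0.22). Over 24 genes with alpha factor they differed by a median of 0.29 and at most 0.68 (pooled SD 0.26). These gaps cover features, not cultures, and whether the features of a gene cover the same stretch of it was not tested. MSG5 had the lowest value in the deletion comparison at -2.51. The direction with alpha factor is likely treated over untreated, because the channels are laid out alike in both samples and 8 of 8 pheromone-induced genes (FUS1, FIG1, AGA1, KAR4, FUS3, STE2, BAR1 and SST2) lay above 0. Those 8 genes were chosen with earlier results of these data known, so they are no independent check. The logarithm's base is 2 in the deletion comparison by the values' own rounding and less certain with alpha factor, where folds hold only for base 2.

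In the msg5 deletion, the pathway as a whole lay slightly above the rest of the genome. Of 35 members, 34 had a value, with a lowest of -0.83, a median of 0.07 and a highest of 0.82. The 5248 other genes had a median of -0.07, a distance of 0.14. Above the median of the other genes stood 25 members and below it 9. At least 1.5-fold higher, which is a log2 ratio of 0.585 or more, was PGK1 alone, against 2.86% of all 5282 genes. GPM2 and ALD4 were at least 1.5-fold lower, against 3.20% of all genes. The members past the threshold were thus about as frequent as among all genes. None reached 2-fold, which 0.833% of all genes did upward and 0.284% downward.

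With alpha factor, the pathway lay below the rest. Values were present for 33 members, with a lowest of -0.66, a median of -0.22 and a highest of 0.16. The 4819 other genes had a median of -0.05, a distance of -0.17, and 27 of 33 members lay below it. Below 0 lay 29 of 33 members, against 58.3% of the other genes. GLK1, PGI1 and ADH5 were at least 1.5-fold lower, against 3.34% of 4852 genes, and no member was 1.5-fold higher, against 1.79%. None reached 2-fold, which 0.412% of genes did upward and 0.371% downward.

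**Figure D1:**
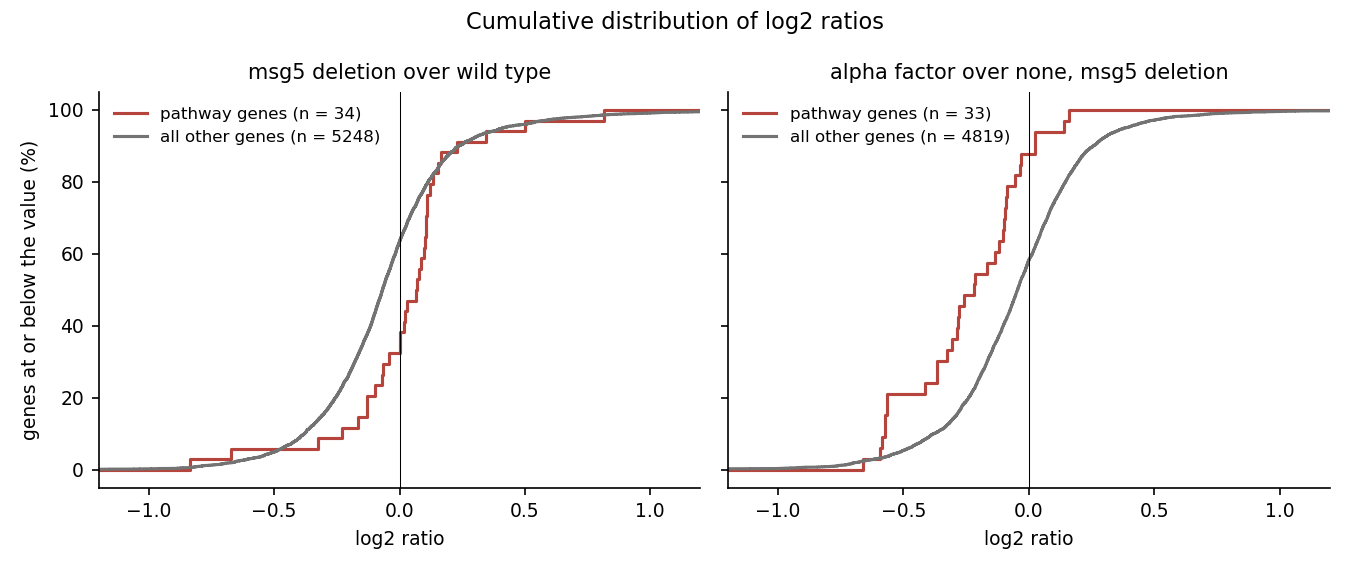
Cumulative share of genes (%) against the log2 ratio, for the pathway genes (red) and all other genes (grey), in the deletion comparison (left) and with alpha factor (right). In the deletion the red curve is to the right of the grey one near 0 and meets it at both ends; with alpha factor it lies to the left, with 29 of 33 genes below 0.

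With alpha factor the SD over members was 0.23, no wider than the pooled SD of 0.26 between features of a gene. Whether values differ along the pathway was not tested. A set of 7 genes lay between -0.56 and -0.66: GLK1, PGI1, ADH5, GPD2, PDC5, ADH2 and ALD4. The next, PYK2, stood at -0.41. At or below -0.5 were 21.2% of the members and 5.44% of the other genes, a bound set after the values were seen. The enzymes from triosephosphate isomerase to enolase, a stretch also marked out after the values were seen, had values between -0.17 and 0.16.

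**Figure D2:**
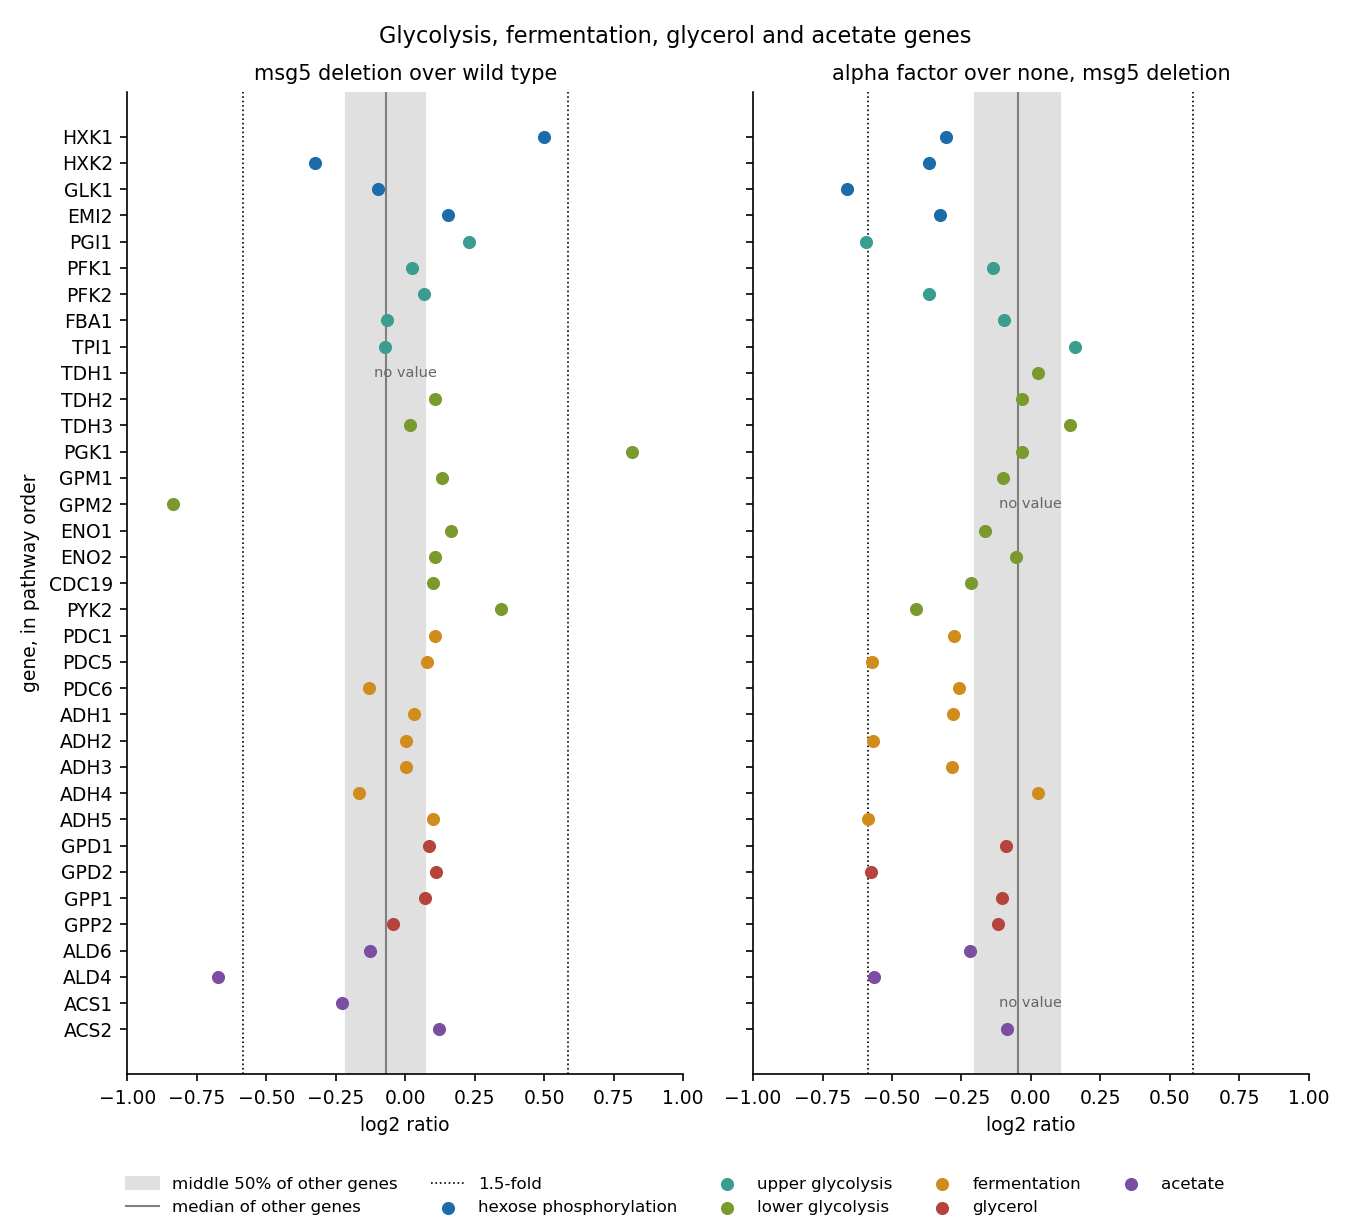
Log2 ratio of each gene, in pathway order from top to bottom, in the deletion comparison (left) and with alpha factor (right); each point is 1 condensed value, colours give the pathway branch, the grey band is the middle 50% of the other genes and dotted lines mark 1.5-fold. PGK1 (0.82), GPM2 (-0.83) and ALD4 (-0.67) stand out on the left, and 7 genes between -0.56 and -0.66 on the right.

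Glucose enters the pathway through 4 kinases. HXK1 (YFR053C), a hexokinase known to be low on glucose, had a log2 ratio of 0.50 in the deletion, which ranks 211 from the top of 5282, and of -0.31 with alpha factor. HXK2 (YGL253W), the main hexokinase on glucose and a mediator of glucose repression, had -0.32 in the deletion and -0.37 with alpha factor. The pair thus lay on opposite sides of 0 in the deletion and close together with alpha factor. GLK1 (YCL040W), the glucokinase, had -0.10 in the deletion and was the lowest member with alpha factor at -0.66, rank 119 from the bottom of 4852. EMI2 (YDR516C), the paralog of GLK1, had 0.15 in the deletion and -0.33 with alpha factor. All 4 kinases were below 0 with alpha factor, with a median of -0.35.

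In the upper part of glycolysis, PGI1 (YBR196C), phosphoglucose isomerase, which has no isozyme, had 0.23 in the deletion and -0.59 with alpha factor. Its value with alpha factor ranks 158 from the bottom. Phosphofructokinase is a complex of alpha and beta subunits. Its alpha subunit PFK1 (YGR240C) had 0.02 in the deletion and -0.14 with alpha factor, and the beta subunit PFK2 (YMR205C) 0.07 and -0.37. The subunits differed by 0.04 in the deletion and 0.23 with alpha factor, both under the median gap between features of a gene. Aldolase, FBA1 (YKL060C), had -0.06 in the deletion and -0.10 with alpha factor, near the median of other genes in both. TPI1 (YDR050C), triosephosphate isomerase, had -0.07 in the deletion and 0.16 with alpha factor, the highest value of any member there.

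In the lower part, triose phosphate dehydrogenase is encoded by TDH1 (YJL052W), TDH2 (YJR009C) and TDH3 (YGR192C). TDH1 had no value in the deletion and 0.02 with alpha factor. TDH2 had 0.11 in the deletion and -0.03 with alpha factor, and TDH3, the most abundant of the enzymes, 0.02 and 0.14. These genes are closely similar in sequence, and how well the spots tell them apart was not tested. PGK1 (YCR012W), phosphoglycerate kinase, was the highest member in the deletion at 0.82, or 1.76-fold, rank 72 from the top. It had -0.03 with alpha factor. Its value in the deletion exceeded in size the largest gap seen between features of a gene there (0.61), as did GPM2 and ALD4. That gap lies between features, while the values are distances from 0, so this is no test.

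GPM1 (YKL152C), the phosphoglycerate mutase, had 0.13 in the deletion and -0.10 with alpha factor. GPM2 (YDL021W), a homolog with little or no known mutase function, was the lowest member in the deletion at -0.83, rank 34 from the bottom, and had no value with alpha factor. The enolase genes lay together: ENO1 (YGR254W) had 0.16 in the deletion and -0.17 with alpha factor, and ENO2 (YHR174W) 0.11 and -0.06. CDC19 (YAL038W), the main pyruvate kinase, had 0.10 in the deletion and -0.22 with alpha factor. PYK2 (YOR347C), the pyruvate kinase used at low glycolytic flux, had 0.35 in the deletion and -0.41 with alpha factor. With GPM2 and TDH1 aside, every gene of this stretch was above 0 in the deletion.

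The fermentation enzymes were close to 0 in the deletion, between -0.16 and 0.11. PDC1 (YLR044C), the main pyruvate decarboxylase, had 0.11 in the deletion and -0.28 with alpha factor. PDC5 (YLR134W), a second active decarboxylase, had 0.08 in the deletion and -0.57 with alpha factor. PDC6 (YGR087C), a minor form, had -0.13 and -0.26. With alpha factor all of these were below the middle 50% of other genes.

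The alcohol dehydrogenases spread more with alpha factor than in the deletion. ADH1 (YOL086C), which makes ethanol, had 0.03 in the deletion and -0.28 with alpha factor. ADH2 (YMR303C), the glucose-repressed enzyme that consumes ethanol, had 0.00 in the deletion and -0.57 with alpha factor. ADH3 (YMR083W), the mitochondrial form, had 0.00 and -0.28. ADH5 (YBR145W) had 0.10 in the deletion and -0.59 with alpha factor, rank 161 from the bottom. ADH4 (YGL256W), which is unrelated in sequence to the others and responds to zinc, lay apart from them at -0.16 in the deletion and 0.03 with alpha factor.

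On the glycerol branch, GPD1 (YDL022W), the glycerol-3-phosphate dehydrogenase induced by osmotic stress, had 0.08 in the deletion and -0.09 with alpha factor. GPD2 (YOL059W), the isozyme associated with redox balance and lack of oxygen, had 0.11 in the deletion and -0.57 with alpha factor, rank 175 from the bottom. GPP1 (YIL053W) and GPP2 (YER062C), the phosphatases of the last step, had 0.07 and -0.04 in the deletion and -0.10 and -0.12 with alpha factor. Apart from GPD2 with alpha factor, the branch stayed within 0.12 of 0 in both comparisons.

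On the acetate branch, ALD4 (YOR374W), the mitochondrial aldehyde dehydrogenase, was low in both comparisons, with -0.67 in the deletion (rank 105 from the bottom) and -0.56 with alpha factor. ALD6 (YPL061W), the cytosolic enzyme, had -0.13 and -0.22. ACS1 (YAL054C), the acetyl-CoA synthetase repressed by glucose, had -0.23 in the deletion and no value with alpha factor. ACS2 (YLR153C), the synthetase used on glucose, had 0.12 in the deletion and -0.09 with alpha factor. Of the 6 branches this was the sole one whose median was below 0 in the deletion, at -0.18 over 4 genes.

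Isozymes and subunits were compared in 20 fixed pairs, each as a difference of log2 ratios within a comparison. In the deletion, 18 pairs had a value, with a median absolute difference of 0.16. The median gap between features of a gene was 0.20, which 8 pairs exceeded, and 2 of these exceeded the largest gap. The typical pair thus differed by less than the features of 1 gene. GPM2 lay below GPM1 by -0.97, and HXK1 lay above HXK2 by 0.82. ALD4 minus ALD6 (-0.55) and ACS1 minus ACS2 (-0.35) came next. EMI2 minus GLK1 (0.25), PYK2 minus CDC19 (0.25), PDC6 minus PDC1 (-0.24) and GLK1 minus HXK2 (0.23) were the others above the median gap. The ENO, GPD and ADH2 to ADH1 pairs differed by at most 0.06.

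With alpha factor, none of 18 pairs differed by more than the largest gap, and 6 exceeded the median gap. The median absolute difference of the pairs was 0.21, again under the median gap of 0.29. The widest was GPD1 minus GPD2 at 0.49. It was followed by ALD4 minus ALD6 at -0.34, EMI2 minus GLK1 at 0.33, ADH4 minus ADH1 at 0.31, ADH5 minus ADH1 at -0.30 and GLK1 minus HXK2 at -0.30. PDC5 minus PDC1, at -0.29, equalled the median gap to 2 decimals. HXK1 and HXK2, far apart in the deletion, differed by 0.06 here, and that change between comparisons was not tested.

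**Figure D3:**
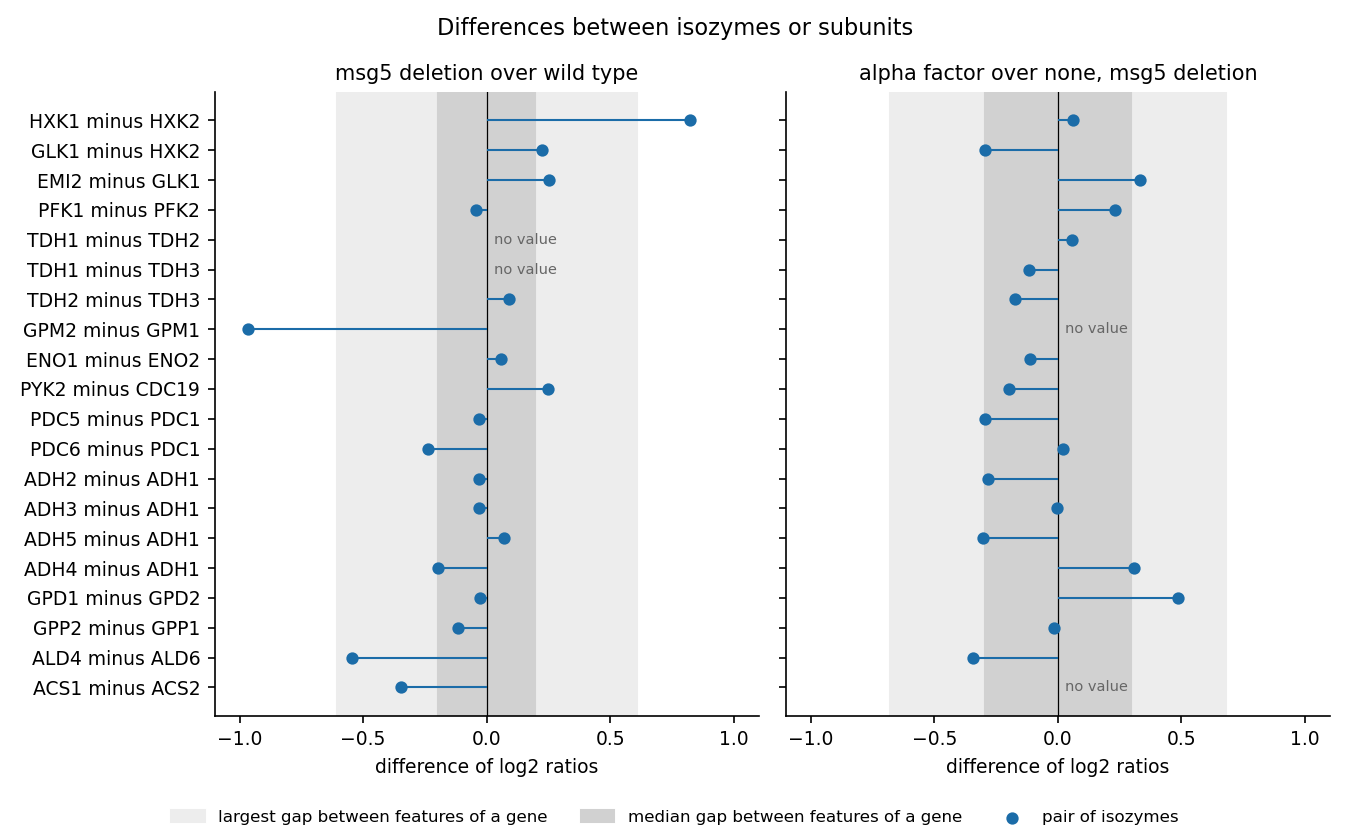
Difference in log2 ratio between the first and second gene of each pair, in the deletion comparison (left) and with alpha factor (right); the dark and light bands reach to the median and the largest gap between features of a gene. HXK1 minus HXK2 (0.82) and GPM2 minus GPM1 (-0.97) leave the light band in the deletion, and no pair does with alpha factor.

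Gene length moved with the values of the alpha factor comparison. Across 4597 genes, which are not independent replicates, Spearman's rho between value and length was -0.23, against 0.04 in the deletion comparison. Over the 33 members it was -0.47. The members measured with alpha factor had a median length of 1314 bp, against 1194 bp for the other genes. After subtraction of the median of genes in the same of 10 length groups, the distance of the members from the other genes was -0.13, and 25 of 33 lay below 0, against 49.8% of other genes. The members at least 1.5-fold lower then numbered 0, against 96 of 4564 other genes. GLK1 stood at -0.52, ADH5 at -0.49 and PGI1 at -0.45. Centring the column on its median left GLK1 alone past 1.5-fold, and the share of all genes was not counted there. The part of length in the result was not tested further. Most isozyme pairs fall in the same length group, so the adjustment cannot bear on their differences.

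**Figure D4:**
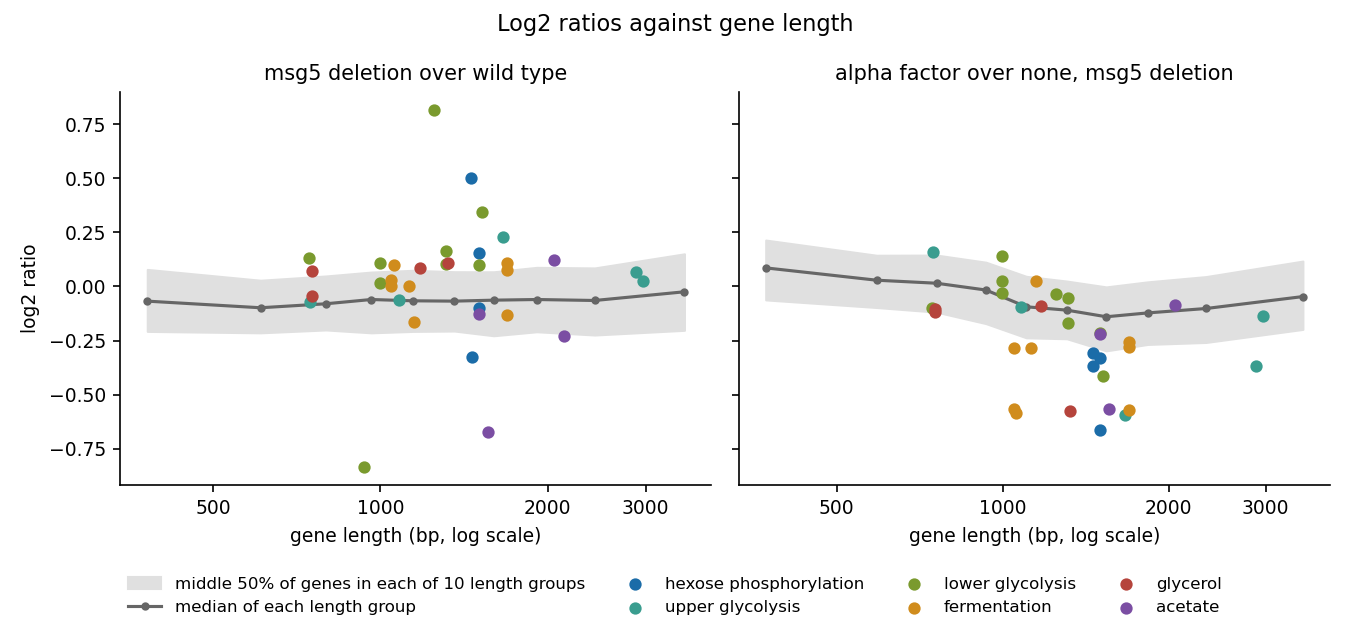
Log2 ratio against gene length (bp, log scale) in the deletion comparison (left) and with alpha factor (right); the grey line and band are the median and middle 50% of genes in each of 10 length groups, and points are the pathway genes coloured by branch. With alpha factor the grey line drops to -0.14 in the seventh group, and the 7 lowest pathway genes lie below the band.

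Genes around the pathway were taken from 6 lists. Among 7 activators of glycolytic genes, all measured, none passed 1.5-fold in the deletion (median -0.25), against 2.86% of all genes higher and 3.20% lower. With alpha factor 2 were lower (median -0.34), against 3.34% of all genes. These were GCR1, the activator named for glycolysis, at -0.75, and RAP1, which binds the promoters of many glycolytic and ribosomal protein genes, at -0.71. They kept -0.70 and -0.61 after adjustment for gene length. GCR2, the partner of GCR1, had -0.45 in the deletion and -0.42 with alpha factor. PDC2, an activator of decarboxylase genes, had -0.37 and 0.16. Of the 7 activators, 5 lay below 0 in the deletion and 2 above it, GCR1 at 0.14 and TYE7 at 0.18.

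Of 18 hexose transporter genes, 8 had a value in the deletion and 12 with alpha factor. HXT6, a high-affinity transporter, was the sole one past 1.5-fold, at -0.74 with alpha factor (1 of 12, against 3.34% of all genes lower). Its near-identical neighbour HXT7 had -0.11, and how well the spots tell this pair apart was not tested. Among 17 genes of glucose sensing and repression, MIG2, a repressor induced by glucose, had -0.68 in the deletion and -0.12 with alpha factor. It was the sole member of that list past 1.5-fold, 1 of 16 in the deletion, against 3.20% of all genes lower. MIG1 had -0.42 and -0.06, MIG3 had 0.14 and -0.07, and the glucose sensor gene SNF3 had -0.11 and 0.54. In the deletion 10 members of the list lay below 0 and 6 above. The 16 members with a value in the deletion had a median of -0.08, and the 13 with alpha factor -0.02.

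Of 11 genes of gluconeogenesis and of the control of phosphofructokinase, FBP26, a phosphatase that breaks down an activator of phosphofructokinase, was past 1.5-fold in the deletion, at 0.66 (1 of 8 with a value, against 2.86% of all genes higher). It had -0.08 with alpha factor. Among 13 other glycerol genes, GCY1, a reductase of glycerol breakdown, had 0.72 in the deletion (1 of 10 with a value past 1.5-fold, against 2.86% higher among all genes) and 0.40 with alpha factor. FPS1, the glycerol channel, had -0.30 and -0.46. The 12 further aldehyde, alcohol and acetate genes held none past 1.5-fold in either comparison (10 with a value in each, against 2.86% higher and 3.20% lower in the deletion and 1.79% and 3.34% with alpha factor), with ATO3 at 0.44 and PDA1 at -0.44 as the farthest, both with alpha factor.

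**Figure D5:**
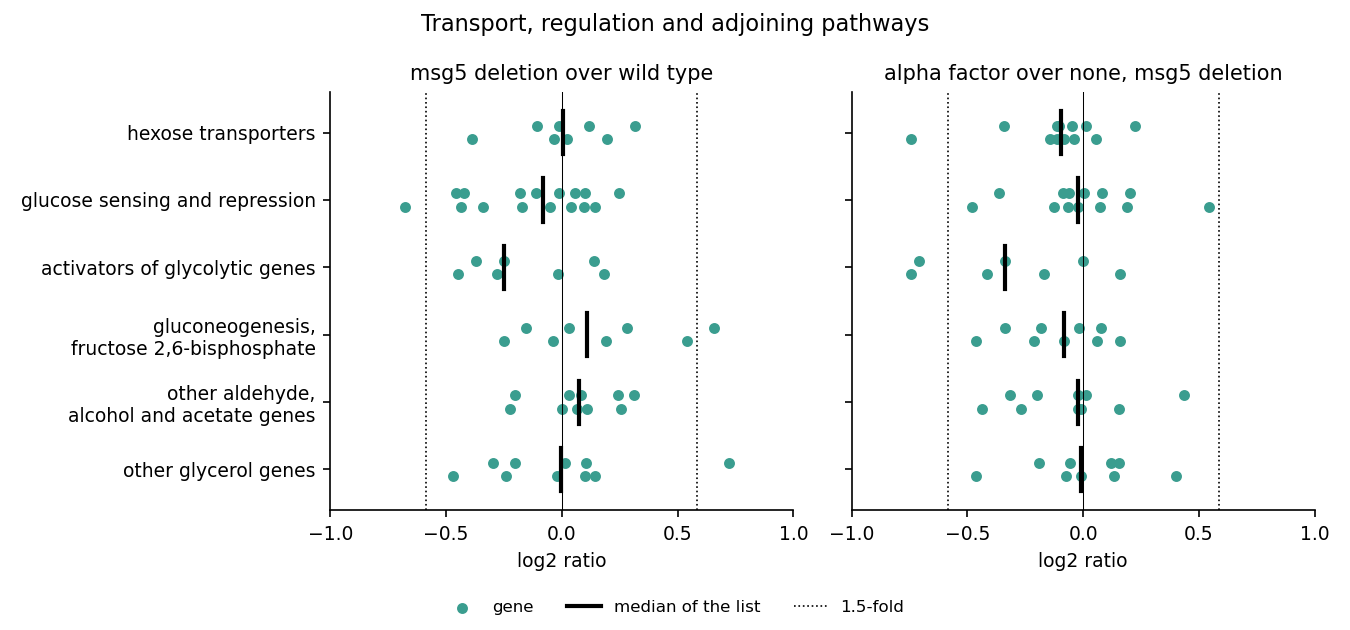
Log2 ratio of each measured gene of the 6 lists around the pathway, in the deletion comparison (left) and with alpha factor (right); black bars are list medians and dotted lines mark 1.5-fold. The activators of glycolytic genes have the lowest median in both panels, -0.25 and -0.34.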

How the data were processed

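Image analysis was done in GenePix Pro 5.0, per the labels. The authors condensed 4 arrays per comparison into 1 deposited log2 ratio per feature. The sources used here name no normalization, filter, probe design or genome build. Spot intensities and single arrays were not used. In the deletion comparison 100% of the values fell on logarithms to base 2 of ratios in steps of 0.001, against 7.52% by chance. With alpha factor 7.98% did, so its base is assumed.

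Of 6209 rows, 2 controls were set aside. By name in the R64 RefSeq table, 5654 features matched by locus tag, 57 by an older name and 496 not at all. Features of 1 gene were averaged, leaving 6172 genes, unmatched features included. Features without a value made up 14.5% of the deletion column and 21.4% of the alpha factor column. Lengths are genomic spans from that table. The size rule was 1.5-fold. Summaries used Python 3.11.15 and pandas 2.3.3 and were tested on simulated data. The genes, lists, pairs and alternatives were chosen with earlier results of these data known. All 35 genes are named, and from the other lists those past 1.5-fold, with a few others chosen after their values were seen. No sequences are shown.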

Additional observations from a re-analysis of the deposited data

How the results depend on the processing

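The distance of the members' median from that of the other genes stayed within 0.05 of the main value without the farthest member, against genes with a symbol, after adjustment for gene length or file order, and with every feature on its own. Among these settings, the distance in the deletion moved most under adjustment for file order, from 0.14 to 0.11. That order follows the feature names, and position on the array was not tested. With alpha factor the distance moved most under adjustment for gene length, from -0.17 to -0.13. Taking alpha factor as untreated over treated, it was 0.17, with 3 members higher and 0 lower, and GLK1 (0.66), PGI1 (0.59) and ADH5 (0.59) lay above 0. As natural logarithms the distance was -0.25, with 8 members 1.5-fold lower, and as base 10 logarithms -0.58, with 18. Either base scales the values of all genes alike, and the share of all genes past 1.5-fold was not counted there. The counts of members past the threshold rested on few genes. At 2-fold all were 0. In the deletion 1 member was lower without GPM2, and 1 after adjustment for file order, where ALD4 had -0.57. With alpha factor 1 was lower after centring and 0 after adjustment for length, against 96 of 4564 other genes after that adjustment. The count of isozyme pairs beyond the largest gap did not change under adjustment for file order. Centring cannot move the distance between medians, nor turning the sign the isozyme counts, and the adjustment for length leaves most pairs as they were. No spot signal over background was used, so what dim spots limit is not known.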

Other observations

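Features next to the members by systematic name, 70 in all, had a median of -0.04 over 60 values in the deletion comparison and -0.08 over 56 with alpha factor. In the deletion ARG1, of arginine synthesis, beside GPD2, had 1.44 against 0.11 for GPD2. NUD1, beside ALD4, had -0.79 in the deletion against -0.67 for ALD4. With alpha factor YDL023C, beside GPD1 and with no symbol in the table, had -1.96 against -0.09 for GPD1, and CKI1, choline kinase, beside PDC5, had -1.005 against -0.57 for PDC5. YCR013C, beside PGK1, had -0.19 in the deletion and 0.76 with alpha factor, against 0.82 and -0.03 for PGK1. YMR304C-A, beside ADH2, had 0.46 and 0.95, against 0.00 and -0.57 for ADH2. YCR013C, YMR304C-A and NUD1 were chosen after their values were seen. Neighbours were taken by name alone, and whether any of them overlaps its member on the chromosome was not tested.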
